A study of Mus musculus with 2 samples.

Results

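The mir-15/16 family was described here in hippocampus of female mice at postnatal day 10. It was taken as 8 microRNA genes, Mir15a, Mir16-1, Mir15b, Mir16-2, Mir195a, Mir497, Mir322 and Mir503, of 2202 counted microRNA genes. The genes were chosen by symbol for a shared seed or a place in 1 of the family's 4 gene pairs, and the rule uses no measured value. The study sequenced small RNA below 30 nt from 2 samples of a single group, untreated as far as the labels say. Animals were B6CASTF1/J hybrids, the offspring of C57BL/6J and CAST, aged 10 days. Each label names 3 females of its own, so a library is a pool of animals, and the counts do not separate the parental alleles. No conditions could be compared, and the differences below are between 2 libraries. Replicate 1 held 5479267 sense counts on microRNA genes and replicate 2 held 3563226. Levels are counts per 1000000 of these sense counts (CPM).

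MicroRNAs guide Argonaute proteins to messenger RNAs, mainly by pairing of the seed, bases 2 to 8 from the 5′ end. The mir-15/16 family is known for repressing cell cycle genes such as D and E cyclins and the survival gene Bcl2, and several members are known to accumulate as cells leave the cell cycle. Each pair lies close together on a strand and is thought to come from a common primary transcript, processed by Drosha and then Dicer.

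The 5p arms are printed because they define the family and decide how reads can be assigned. All 8 members matched the RefSeq table (GRCm38.p6), with 7 distinct 5p sequences, since Mir16-1 and Mir16-2 give the same one. Capitals mark the seed.
miR-15a-5p, from Mir15a: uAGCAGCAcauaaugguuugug
miR-15b-5p, from Mir15b: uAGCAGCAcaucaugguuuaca
miR-16-5p, from Mir16-1 and Mir16-2: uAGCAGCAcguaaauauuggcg
miR-195a-5p, from Mir195a: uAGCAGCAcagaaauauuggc
miR-497a-5p, from Mir497: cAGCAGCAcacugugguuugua
miR-322-5p, from Mir322: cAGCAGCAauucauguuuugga
miR-503-5p, from Mir503: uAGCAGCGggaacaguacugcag

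Of the 8 genes, 7 carried the seed AGCAGCA, and Mir503 carried AGCAGCG. Outside the seed the arms varied. Compared without gaps from base 1, miR-16-5p and miR-195a-5p were the closest, with 19 of 21 bases identical, followed by miR-15a-5p and miR-15b-5p with 18 of 22. The lowest identity was between miR-497a-5p and miR-503-5p, at 10 of 22 bases. The seed AGCAGCA was also carried by 4 further mouse genes in the RefSeq table, shown here because none of them had a sense count in either library.
miR-195b, from Mir195b: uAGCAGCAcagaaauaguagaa
miR-6342, from Mir6342: cAGCAGCAaucuggucuuugag
miR-6353, from Mir6353: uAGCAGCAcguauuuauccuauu
miR-6419, from Mir6419: cAGCAGCAaucugacacaugga

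Where a read can be placed uniquely, 0 counts leave room for at most 0.548 CPM (replicate 1) or 0.842 CPM (replicate 2), the level of 3 counts, as far as counting error goes. The longest stretch that these 4 hairpins shared with a microRNA gene at another locus was 13 to 16 nt, the 16 nt being between Mir195b and Mir195a. No other gene carried the seed of miR-503-5p.

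The arms of the Mir16 copies are shown next because their counts rest on what the copies do not share. The hairpins have a common stretch of 23 nt, uagcagcacguaaauauuggcgu, which holds the whole miR-16-5p. A read that lies inside this stretch fits both genes equally. The files set reads that matched several places apart from every gene, and such reads were 43.2% of all reads in replicate 1 and 39.3% in replicate 2. The number that were miR-16-5p is not known. The 3p arms differ, with 12 of 22 bases identical, and each has no exact copy in a transcript of another locus.
miR-16-1-3p, from Mir16-1: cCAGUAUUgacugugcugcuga
miR-16-2-3p, from Mir16-2: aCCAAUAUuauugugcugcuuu

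Of 15 distinct mature names of the family, miR-16-5p alone had an exact copy in a transcript of another locus. Genes that overlap a member were left out of this search, and Mir497b lies across Mir497 on the opposite strand. The stretches that the remaining 6 members share with a microRNA gene of another locus were at most 16 nt. Values for Mir16-1 and Mir16-2 therefore cover only reads with a unique place and do not give the level of miR-16-5p. The counts are per gene and do not separate the 5p from the 3p arm in any member.

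Assigned reads of the family made up 0.742% ± 0.0882 of the sense counts (SD, n = 2). The share was 0.679% in replicate 1 (exact Clopper-Pearson interval at 95%, 0.672% to 0.686%) and 0.804% in replicate 2 (0.795% to 0.813%). The spread between the libraries was wider than either interval, which covers counting error only. The higher share in replicate 2 was not common to the members, as 5 of the 8 were lower there. Mir497 alone held 27.1% of the family's counts in replicate 1 and 42.6% in replicate 2. All 8 members passed the minimum of 10 counts per library for a gene to be called detected, as did 19.5% of the 2202 genes, and the lowest member count was 157. In tissue RNA of this kind, fewer cells of a type and less RNA per cell cannot be told apart. CPM were not divided by hairpin length, because a read covers a mature arm and the arms printed above have nearly equal lengths.

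By assigned reads, Mir497 was the highest member in both libraries. It reached 1843 CPM in replicate 1 and, in replicate 2, 3424 CPM, with a mean of 2634 ± 1118 CPM (SD, n = 2), rank 66 of 2202 genes. Its lower value lay above every other member's higher value. It held 27.1% of the family's assigned counts in replicate 1 and 42.6% in replicate 2.

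A middle set of Mir322, Mir195a, Mir15b and Mir15a followed, and their order was not resolved. Mir322 stood at 1219 and 1421 CPM in replicates 1 and 2, Mir195a at 1459 and 928 CPM, Mir15b at 1271 and 991 CPM, and Mir15a at 546 and 1035 CPM. Each neighbouring pair of means in this set had overlapping ranges and changed order between the libraries. Replicate 1 placed Mir195a first and Mir15a last of these, while replicate 2 placed Mir322 first and Mir195a last.

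Mir16-1, Mir503 and Mir16-2 were the lowest by assigned reads, which for Mir16-1 and Mir16-2 are only those with a unique place. Mir16-1 stood at 302 and 149.9 CPM in replicates 1 and 2, Mir503 at 85.8 and 44.1 CPM, and Mir16-2 at 68.1 and 47.1 CPM. Mir16-1 lay above Mir503 and Mir16-2 in both libraries and below the middle set, while the ranges of Mir503 and Mir16-2 overlapped. The family thus spanned from rank 66 for Mir497 to rank 241 for Mir16-2 by mean level.

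**Figure D1:**
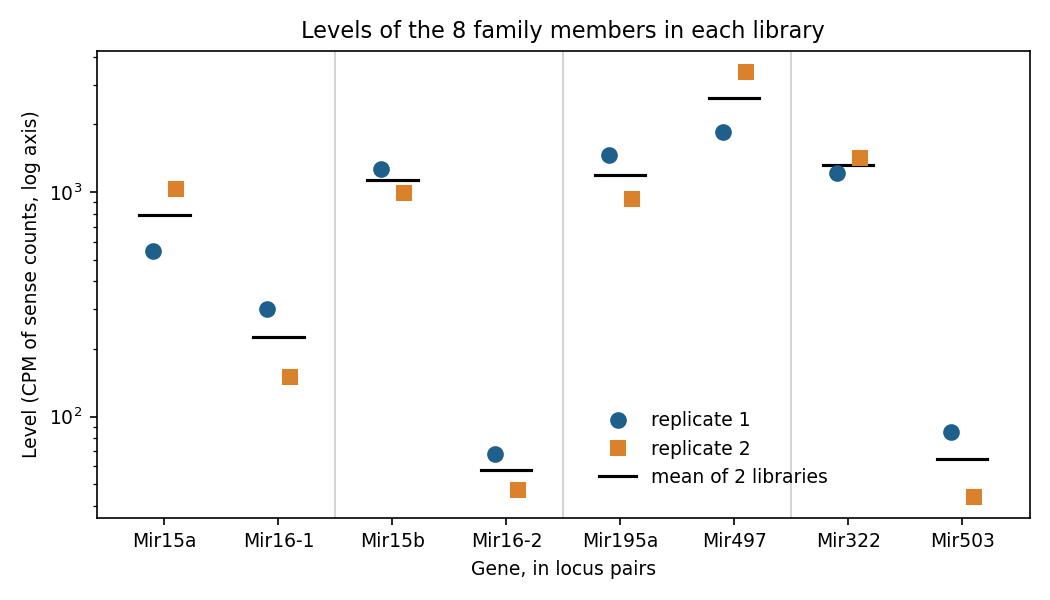
Level of each member in CPM of sense counts on a log axis, with a point per library and a bar at the mean of 2 libraries, in locus pairs from left to right. By assigned reads, Mir497 is the highest in both libraries at 1843 and 3424 CPM, and Mir16-2 and Mir503 are the lowest, between 44.1 and 85.8 CPM. Values for Mir16-1 and Mir16-2 cover only reads with a unique place.

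Genes nearest in level were found by the summed absolute difference in log2(CPM + 1) over the 2 libraries, as a description. They were Mir9-3 for Mir16-2 (0.04), Mir300 for Mir322 (0.09), Mir30e for Mir497 (0.16), Mir7689 for Mir15b (0.22), Mir15b for Mir195a (0.29), Mir543 for Mir15a (0.33), Mir1198 for Mir503 (0.37) and Mir18 for Mir16-1 (0.67). Mir9-3, like Mir16-2, is a copy that shares a stretch longer than its mature arm with another gene, 26 nt with Mir9-2.

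All 8 members differed between the libraries by more than counting error. The test was a two-sided exact binomial test on TMM-scaled library sizes, with Benjamini-Hochberg adjustment over 429 detected genes at 0.05. The same test called 61.3% of detected genes, so a call by itself does not set the family apart. Members went in both directions. Replicate 2 was higher for 3 of them, against 28.7% of detected genes called in that direction, and lower for 5, against 32.6%. The median log2 ratio of replicate 2 to replicate 1 was -0.50 over the members and 0.05 over all detected genes, and the median absolute ratios were 0.77 and 0.33.

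Mir15a, Mir497 and Mir322 were higher in replicate 2. Mir15a had 2989 counts in replicate 1 and 3688 in replicate 2 despite the smaller library, a log2 ratio of 0.86 (counting interval at 95%, 0.79 to 0.93; exact binomial test, adjusted p = 3.54e-130). Mir497 had 10101 and 12202 counts, a log2 ratio of 0.83 (0.79 to 0.87), with a p too small for the computer's number format. Mir322 moved least of the family. It had 6680 and 5062 counts, a log2 ratio of 0.16 (0.11 to 0.21; exact binomial test, adjusted p = 1.01e-08), and 75.1% of detected genes had an absolute ratio at least as large.

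Mir16-1, Mir503, Mir195a, Mir16-2 and Mir15b were lower in replicate 2. Mir16-1 had 1652 and 534 counts, a log2 ratio of -1.07 (-1.21 to -0.93; exact binomial test, adjusted p = 5.19e-55). Mir503, which differs from the others in its last seed base, had 470 and 157 counts and a log2 ratio of -1.02 (-1.29 to -0.76; exact binomial test, adjusted p = 3.01e-15). These 2 genes were the members with a ratio of at least 2-fold, which 11.9% of detected genes reached. Scaled by library totals or counted without regard to strand, Mir503 stood at -0.96 and -0.99, just under this size, and Mir16-1 alone passed it. Mir195a had 7992 and 3306 counts, a log2 ratio of -0.71 (-0.77 to -0.66; exact binomial test, adjusted p = 2.40e-133). Mir16-2 had 373 and 168 counts and a log2 ratio of -0.59 (-0.86 to -0.32; exact binomial test, adjusted p = 1.76e-05). Mir15b had 6964 and 3532 counts and a log2 ratio of -0.42 (-0.48 to -0.36; exact binomial test, adjusted p = 1.23e-45), which 41.3% of detected genes reached or passed in size.

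The test sets 2 libraries against counting error, and with 2 samples of 1 group no test of a spread between animals is possible. Summed marker levels were higher in replicate 2 for every list but vessel wall, and choroid plexus and ependyma. A sum can hide genes that went the other way. Markers of neurons summed to 25485 and 27237 CPM in replicates 1 and 2 (5 of 5 detected), of vessel wall to 11756 and 11138 CPM (3 of 3), of choroid plexus and ependyma to 4745 and 4668 CPM (3 of 3) and of oligodendrocytes to 1543 and 2024 CPM (2 of 2). Red cell markers, listed because miR-16 is abundant in red cells, summed to 55.5 and 64.3 CPM (3 of 3 detected), blood lineage and myeloid markers to 138 and 145 CPM (3 of 3), and striated muscle markers to 48.0 and 103 CPM, with Mir133b and Mir208b not detected. Genes of the proliferation-linked Mir17 and Mir106b loci summed to 12633 and 13351 CPM, with 7 of 9 detected and Mir19a and Mir19b-1 not. All these sums hold only reads with a unique place. Neuron markers Mir128-1, Mir128-2 and Mir138-1, oligodendrocyte marker Mir219a-2 and proliferation genes Mir19b-1 and Mir92-1 are numbered as gene copies. Reads that fit several copies are left out, so the sums are not full marker levels. The part of any of these cell types in the differences was not tested.

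**Figure D2:**
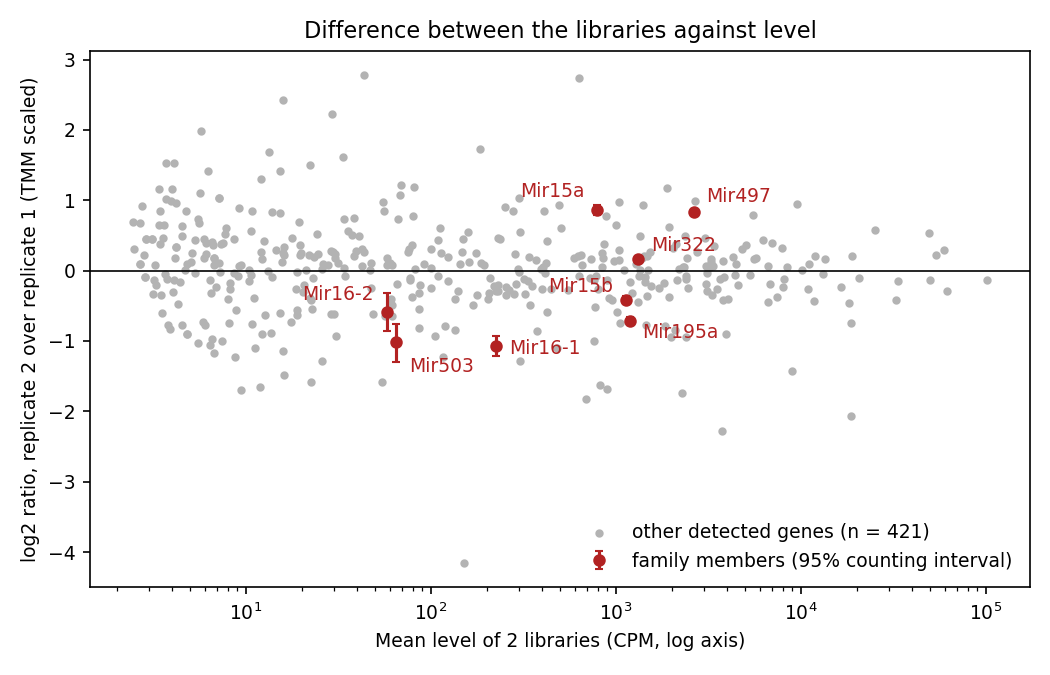
Log2 ratio of replicate 2 to replicate 1 after TMM scaling, against the mean level in CPM on a log axis, for 429 detected genes. Grey points are the 421 other genes and red points the 8 members with 95% counting intervals. Mir15a and Mir497 lie at 0.86 and 0.83, and Mir16-1 and Mir503 at -1.07 and -1.02.

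The gene pairs lie at 4 loci, given here in mm10 with the GENCODE M21 annotation. Mir15a (ENSMUSG00000093007.1, chromosome 14, 61632027 to 61632110, minus strand) lies in an intron of the non-coding gene Dleu2, and Mir16-1 (61631880 to 61631972) overlaps an annotated exon of it. The human counterpart of this locus is known for its deletion in chronic lymphocytic leukaemia. Mir15b (ENSMUSG00000065580.2, chromosome 3, 69009772 to 69009835, plus strand) and Mir16-2 (69009902 to 69009996) lie in an intron of Smc4, which encodes a condensin subunit needed to compact chromosomes in mitosis. Mir497 (ENSMUSG00000105220.1, chromosome 11, 70234717 to 70234800, plus strand) and Mir195a (70235042 to 70235135) overlap no annotated host on their strand, and Mir497b is annotated across Mir497 on the minus strand. Mir322 (ENSMUSG00000065418.1, chromosome X, 53054255 to 53054349, minus strand) and Mir503 (53053984 to 53054054) overlap no other annotated gene. The partners are 54, 66, 241 and 200 nt apart in this order of loci.

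The balance between partners shifted between the libraries at 3 of the 4 loci. This comparison needs no library scaling, since both counts come from the same library. By a two-sided Fisher's exact test on the counts, adjusted over 111 neighbouring pairs of detected genes within 10 kb on a strand, 66.7% of all such pairs were called, so 3 of 4 is near the background. The median absolute change of the log2 partner ratio over the 111 pairs was 0.36.

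At the Dleu2 locus the partners went in opposite directions. Mir15a held 64.4% of the pair's counts in replicate 1 (exact interval 63.0% to 65.8%) and 87.4% in replicate 2 (86.3% to 88.3%). The ratio of Mir15a to Mir16-1 thus went from 1.81 to 6.91, a log2 change of 1.93 (Fisher's exact test, adjusted p = 6.57e-143). Among the 111 pairs, 1.80% changed at least as much. The Mir16-1 side of this ratio holds only reads with a unique place.

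At the Smc4 locus, which carries the other copy of Mir16, the balance did not pass the test. Mir15b held 94.9% of the pair's counts in replicate 1 (94.4% to 95.4%) and 95.5% in replicate 2 (94.7% to 96.1%). The ratio of Mir15b to Mir16-2 was 18.7 and 21.02 (log2 change 0.17; Fisher's exact test, adjusted p = 0.274). The ratio of Mir15a to the other copy, Mir16-1, was 1.81 and 6.91, and this difference between loci was not tested.

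Mir195a and Mir497 also moved apart. Mir195a held 44.2% of the pair in replicate 1 (43.4% to 44.9%) and 21.3% in replicate 2 (20.7% to 21.97%). Mir497 was 1.26 times Mir195a in replicate 1 and 3.69 times in replicate 2, a log2 change of 1.55 in size, which 7.21% of the 111 pairs reached. The p was again too small for the number format. Neither gene shares more than 16 nt with a microRNA gene of another locus, and the Mir16 copies share 23 nt. Whether shared stretches have a part in any of these shifts was not tested.

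Mir322 and Mir503 kept a strong imbalance in both libraries. Mir322 held 93.4% of the pair in replicate 1 (92.8% to 94.0%) and 96.99% in replicate 2 (96.5% to 97.4%). The ratio of Mir322 to Mir503 went from 14.2 to 32.2, a log2 change of 1.18 (Fisher's exact test, adjusted p = 2.03e-19), and 15.3% of the 111 pairs changed at least as much.

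Levels were also summed over the partners of a locus. Mir195a with Mir497 held 3302 and 4352 CPM in replicates 1 and 2, Mir322 with Mir503 1305 and 1465 CPM, Mir15b with Mir16-2 1339 and 1038 CPM, and Mir15a with Mir16-1 847 and 1185 CPM. By assigned reads, the Mir195a and Mir497 locus was the highest in both libraries, and the order of the other 3 differed between the libraries. The sums with Mir16-1 or Mir16-2 leave out reads that fit both of these genes, and the number left out is not known. The sums therefore do not rank the loci by their full levels.

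**Figure D3:**
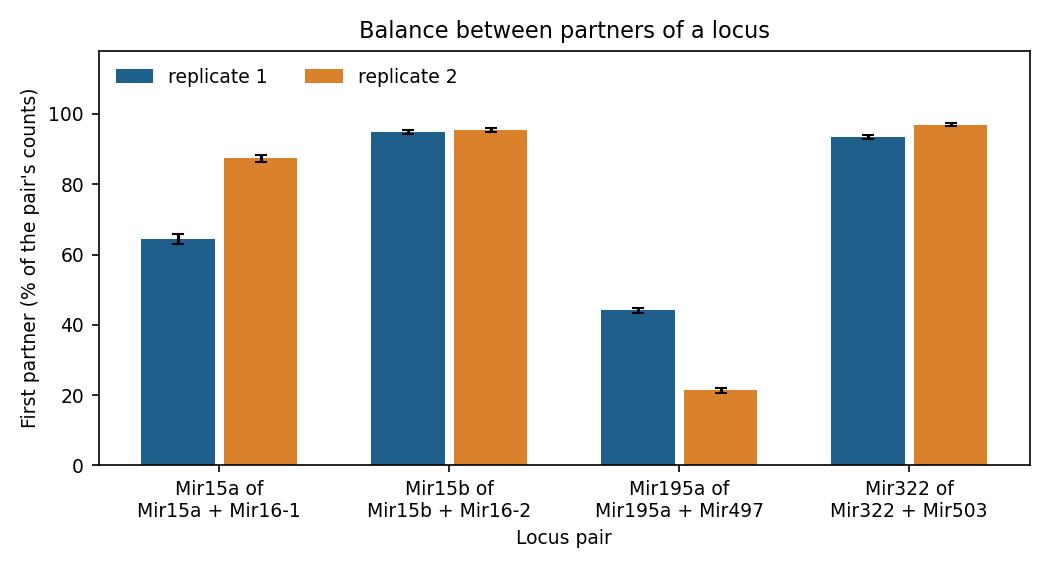
Share of a pair's sense counts held by its first-named gene, in percent, for the 4 loci, with 1 bar per library and exact 95% intervals of counting error. Mir15a goes from 64.4% to 87.4% and Mir195a from 44.2% to 21.3%, while Mir15b stays between 94.9% and 95.5%.

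The X-linked locus holds 5 further microRNA genes downstream of Mir503, which do not carry the family's seed and serve as neighbours of the same strand. Mir351, which carries the seed of the mir-125 family, was the highest, at 959 and 1112 CPM in replicates 1 and 2. Its log2 ratio of 0.15 (0.09 to 0.21; exact binomial test, adjusted p = 1.70e-06) was close to the 0.16 of Mir322, although Mir503 between them stood at -1.02. Mir542 stood at 101 and 71.8 CPM with a log2 ratio of -0.55 (-0.77 to -0.34).

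The 3 genes at the far end of the locus had few counts. Mir450b had 41 and 50 counts, a log2 ratio of 0.84 (0.22 to 1.48; exact binomial test, adjusted p = 0.00967). Mir450-1 had 1 and 0 counts and Mir450-2 had 0 and 1, and these copies share 25 nt, so their levels are not given by reads with a unique place. Of the 5 neighbours, 3 could be tested and all 3 were called, with replicate 2 higher for 2 and lower for 1, beside the 61.3% called among all detected genes. The whole locus held 0.252% ± 0.0205 of the sense counts (SD, n = 2).

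**Figure D4:**
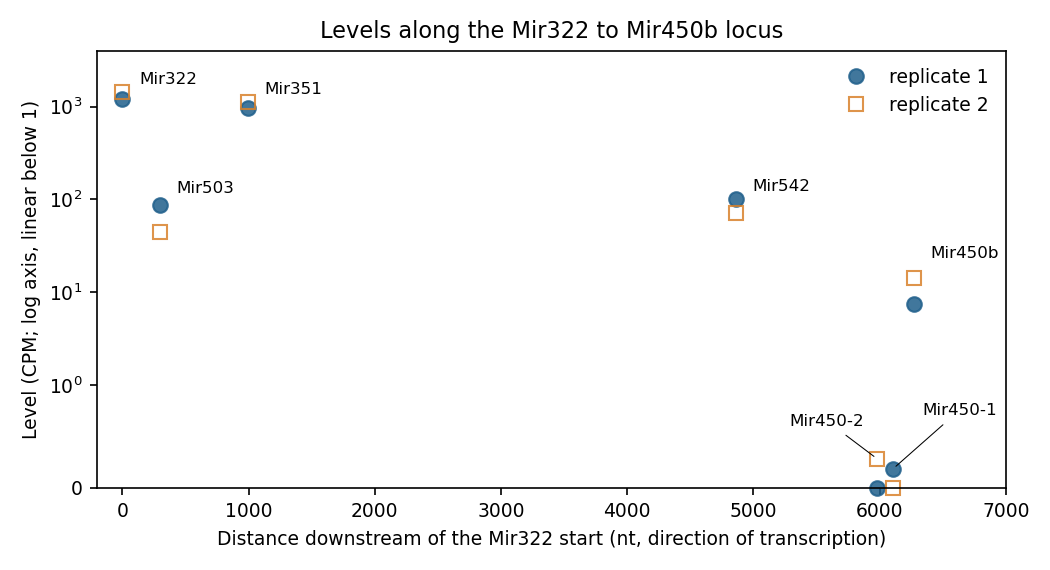
Level in CPM of Mir322, Mir503 and 5 neighbouring microRNA genes against distance downstream of the Mir322 start in nt, with a point per library, on a log axis that is linear below 1 CPM. Mir322 and Mir351, whose starts are 996 nt apart, lie at 959 to 1421 CPM, and Mir503 between them at 44.1 to 85.8 CPM.

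The strand of the counts decided the value of 1 member. In the column that ignores strand, Mir497 had 0 in both libraries, and Mir497b, annotated across it on the opposite strand, also had 0. That column sets 321520 and 215480 reads apart as ambiguous in replicates 1 and 2, and the sense column none. The ambiguous row names no gene, so the genes its reads cover are not recorded. The antisense column of Mir497b held 10101 and 12202 counts in replicates 1 and 2, the same numbers as the sense counts of Mir497. By sense counts Mir497b itself had 4 and 0. The other 7 members had the same count with and without regard to strand and no antisense count in either library.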

How the data were processed

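The authors deposited a table of unnormalized read counts by microRNA gene for each library, on mm10 with GENCODE M21, per the notes that accompany each library. The aligner, counter and filters used are not given in these sources. Of the strand columns, the one with the larger total was taken as sense. The 4 rows that name no gene entered no library size or test. Unmapped reads were 14.2% and 18.0% of all reads in replicates 1 and 2, and multiply matching reads 43.2% and 39.3%. Reads in no counted microRNA gene on the sense strand were 6.16% and 5.17%, and ambiguous reads 0 in the sense column.

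TMM factors were computed with edgeR 4.0.16, size factors for an alternative with DESeq2 1.42.0, and exact tests with SciPy 1.17.1. Ratios add 0.5 counts. Both tests were tested on simulated counts that varied by counting error and set fold changes only. Such counts hold no spread between libraries, so the trial does not cover the spread seen here. Partner p-values were planned over the 4 pairs and are given over all 111 neighbouring pairs, with the same calls. Transcripts of GENCODE M21 were searched on both strands for shared stretches, leaving out genes that overlap the one searched. The genome itself was not searched. Named are the members, their locus neighbours and opposite-strand genes, carriers of the seeds, and the gene nearest in level to each member. Members and lists were chosen with earlier results of these data known.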

Additional observations from a re-analysis of the deposited data

Results flagged for a closer look

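The antisense column held 4 counts on Mir497 in replicate 1, above the limit of 3 counts that a count of 0 allows, and none in replicate 2. They are the sense counts of Mir497b, which is annotated across it on the opposite strand, and compare with 10101 sense counts of Mir497 in the same library.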

How the results depend on the processing

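By assigned reads, the family's share of 0.742% was 0.509% in counts without regard to strand, where Mir497 is at 0. It was 0.275% with all reads of the file as the denominator. Leaving out each replicate gave 0.679% and 0.804%. All 8 members were detected at minimums of 1 or 100 counts or 5 CPM (the last chosen after seeing the data), and 7 without regard to strand. All 8 were called with DESeq2 size factors, library totals or no minimum, and 7 without regard to strand. With no minimum the share called over genes with any sense count fell to 35.3% (288 of 817), against 60.6% to 61.5% in the other settings. The 31 recomputed member ratios, over 2 other scalings, another pseudocount and unstranded counts, all had the direction and call reported, and none moved by more than 0.06 on the log2 scale, though the members at 2-fold or more went from 2 to 1, without Mir503, with library totals or unstranded counts. Partner balance was called for 3 pairs when adjusted over all pairs and, without regard to strand, for 2 of the 3 pairs left. Adjusted over 4 or over 111 pairs, the Smc4 pair was the exception. No paired analysis was possible because the series has a single group. Depth limited Mir16-2 and Mir503 most, with intervals over 0.5 wide on the log2 scale.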
